A study of Mus musculus with 19 samples.

Results

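The miR-23, miR-27 and miR-24 clusters were read on 19 one-colour Agilent miRNA arrays through mmu-miR-23a, mmu-miR-27a, mmu-miR-23b, mmu-miR-27b and mmu-miR-24, which were taken by these exact names in the scanner files and are written without their species prefix from here on. They were 5 of the 696 miRNAs on the array and 5 of the 208 that were detected on at least 4 arrays and tested. The arrays held liver RNA of male MutaMouse animals aged 10 weeks, a transgenic line that carries a bacterial reporter gene for scoring mutations, with 1 mouse per array and 100 ng of RNA labelled for each. Every animal had 28 daily gavages of olive oil. In the control group the oil was given alone, and in the low, middle and high dose groups it carried 6.25, 12.5 or 25 mg/kg/day of dibenz[a,h]anthracene, a polycyclic aromatic hydrocarbon that is activated in liver to products that damage DNA. Liver was taken 3 days after the last gavage. The control, low and high dose groups had 5 arrays each and the middle dose group had 4, where the labels speak of 5 animals. The question for these miRNAs, as the series labels give it, was whether the exposure changed their level in liver.

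A miRNA is a short RNA that pairs through its seed, the bases near its 5′ end, with messenger RNAs and lowers their output. The genes of each cluster lie close together and are transcribed as 1 precursor, which is then cut into separate miRNAs. The clusters are best known from blood vessel endothelium, blood cells and muscle. In mouse fetal liver the miR-23b cluster holds down Smad proteins of the TGF-beta pathway, miR-27 limits genes of lipid storage and fat cell formation, and in human cells miR-27b represses CYP1B1, an enzyme that activates polycyclic aromatic hydrocarbons.

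Both clusters were placed with the RefSeq annotation of GRCm38.p6. Mir23a, Mir27a and Mir24-2 lie within 404 bases of chromosome 8, at chr8:84208518-84208921 on the plus strand, and no annotated gene contains them. Mir23b, Mir27b and Mir24-1 lie within 792 bases of chromosome 13, at chr13:63300484-63301275 on the plus strand, inside the protein-coding gene Aopep. Mir24-1 also overlaps the miRNA gene Mir3074-1. The mature sequences that were matched, 4 of the 5, are shown because they set which measurements can separate the clusters; capitals mark the seed, bases 2 to 8.
miR-23a-3p: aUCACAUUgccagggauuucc
miR-27a-3p: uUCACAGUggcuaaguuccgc
miR-27b-3p: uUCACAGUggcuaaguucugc
miR-24-3p: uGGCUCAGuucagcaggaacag
miR-27a-3p comes from chr8:84208727-84208747 and miR-27b-3p from chr13:63300760-63300780. They share their seed and differ by 1 substitution, C19U, with positions counted from 1 at the 5′ end of miR-27a-3p, and how far their probes keep them apart was not tested. miR-24-3p is the same sequence from Mir24-2, at chr8:84208875-84208896, and from Mir24-1, at chr13:63301251-63301272, so its signal sums both clusters. Of the other matched miRNAs on the array none shared its seed. miR-23a-3p comes from chr8:84208563-84208583.

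All 5 miRNAs were detected on 19 of 19 arrays, each through 2 probes with 7 to 10 spots kept per array. The coefficient of variation between spots of a probe had a median of 4.11% and a highest value of 12.3%. Levels below are log2 values of the background-subtracted signal of the brighter probe, after division by the array's 75th percentile, taken over 220 probes that every array detected. They compare arrays for 1 miRNA, and do not rank one miRNA against another. A change passed where its Benjamini-Hochberg adjusted p in limma, over all 208 tested miRNAs and with the slide as a block, was under 0.05. The hepatocyte miRNA miR-122 was detected on all 19 arrays at a mean level of 6.64, which goes with the liver label.

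Before any scaling, array signal was lower in the middle and high dose groups. The 75th percentile used for scaling was 219 to 491 in controls, 219 to 372 in low dose, 176 to 304 in middle dose and 139 to 226 in high dose livers, in units of signal intensity. RNA added before labelling gave log2 signals of 12.36 ± 0.24 (SD, n = 5) in controls, then 12.25 ± 0.15 (n = 5), 11.89 ± 0.24 (n = 4) and 11.52 ± 0.17 (n = 5) with rising dose. The row of the slide also moved with dose: 4 of 5 control and 4 of 5 low dose arrays lay in row 1, against 1 of 4 middle dose and 0 of 5 high dose arrays. Slides 1 and 2 held 1 control each, replicates 1 and 10, and slide 3 held the other three.

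**Figure D1:**
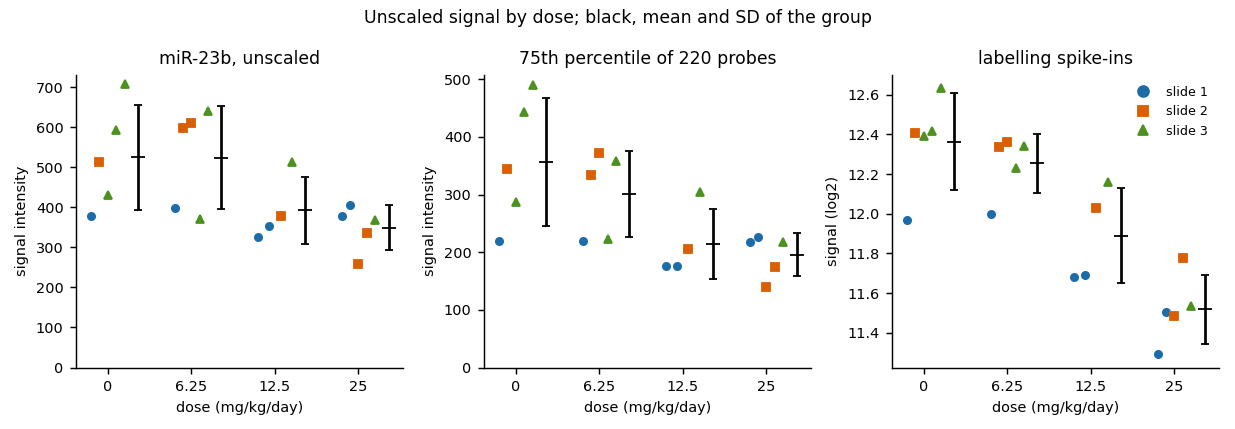
Unscaled signal of miR-23b (left), the 75th percentile of the array over 220 probes (centre), both as signal intensity, and the log2 signal of the labelling spike-ins (right), by dose in mg/kg/day. Points are arrays, coloured by slide, and black bars are group means with SD. The percentile had its highest value, 491, among controls and its lowest, 139, at the high dose.

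The clearest result was at the middle dose, where all 5 miRNAs were 1.15- to 1.30-fold higher than control and passed, although the changes of all 5 were below 0 when arrays were left unscaled or divided by the 75th percentile over all probes. Of the 208 tested miRNAs 12 passed at that dose, 5.77%, all of them higher, while without adjustment 45 were higher and 7 lower at p under 0.05. In low and in high dose livers 1 of the 5 passed, miR-23b each time, where 4.33% and 2.4% of tested miRNAs passed. The median log2 change of the 5 was 0.20 in low, 0.28 in middle and 0.15 in high dose livers. Over all 208 it was 0.07, 0.11 and 0.05. Relative to those medians the 5 stood 0.10 to 0.19 higher in low dose livers, 0.10 to 0.27 higher in middle dose livers and between -0.02 and 0.17 in high dose livers.

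**Figure D2:**
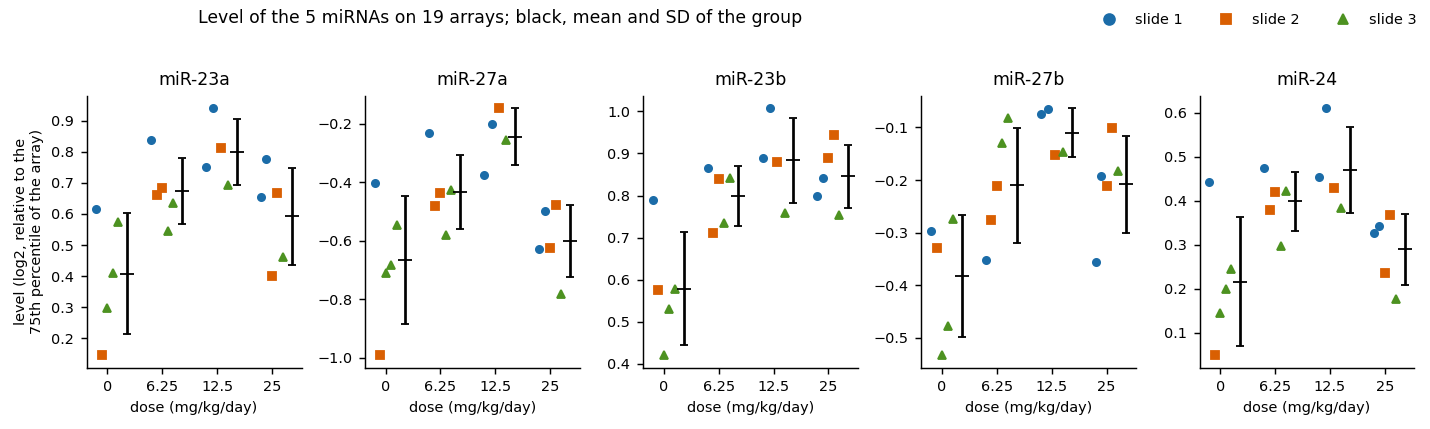
Level of each miRNA on every array (log2, over the array's 75th percentile) by dose in mg/kg/day, with slides by colour and shape and black bars for group mean and SD. For miR-23a, miR-27a and miR-27b all 4 middle dose arrays lie above all 5 controls on this scaling, while without scaling the groups overlap and the log2 changes are below 0.

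miR-23a, which in human cells limits the glutamine-using enzyme glutaminase, had control levels of 0.15, 0.30, 0.41, 0.57 and 0.61. Low dose livers gave 0.55, 0.63, 0.66, 0.68 and 0.84, middle dose livers 0.69, 0.75, 0.81 and 0.94, and high dose livers 0.40, 0.46, 0.65, 0.67 and 0.78. All 4 middle dose arrays, 4 of 5 low dose arrays and 3 of 5 high dose arrays lay above the highest control. The middle dose mean of 0.80 ± 0.11 (SD, n = 4) stood against 0.41 ± 0.19 (SD, n = 5) in controls, a log2 change of 0.34 with the slide as a block (SE 0.08, 95% interval 0.16 to 0.52, adjusted p = 0.0339), or 1.26-fold. The low dose change of 0.27 (SE 0.08, adjusted p = 0.0684) and the high dose change of 0.15 (SE 0.08, adjusted p = 0.270) did not pass.

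miR-27a, whose targets in mouse fat cells include the regulator PPAR-gamma, had control levels of -0.99, -0.71, -0.68, -0.54 and -0.40. Low dose livers gave -0.58, -0.48, -0.44, -0.43 and -0.23, middle dose livers -0.37, -0.25, -0.20 and -0.15, and high dose livers -0.78, -0.63, -0.62, -0.50 and -0.48. The middle dose arrays did not overlap the controls, while all 5 high dose arrays lay within the control range. At the middle dose miR-27a averaged -0.24 ± 0.10 (SD, n = 4), against -0.67 ± 0.22 (SD, n = 5) in controls. The middle dose change of 0.38 (SE 0.10, 95% interval 0.16 to 0.60, adjusted p = 0.0403), or 1.30-fold, was the largest of the 5 and also had the widest interval. Its low dose change was 0.23 (SE 0.09, adjusted p = 0.278) and its high dose change 0.04 (SE 0.10, adjusted p = 0.933).

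miR-23b, the counterpart of miR-23a on chromosome 13, had control levels of 0.42, 0.53, 0.57, 0.58 and 0.79. Low dose livers gave 0.71, 0.73, 0.84, 0.84 and 0.86, middle dose livers 0.76, 0.88, 0.89 and 1.01, and high dose livers 0.75, 0.80, 0.84, 0.89 and 0.94. Control replicate 1, on slide 1, reached the dosed range, and every dosed array lay above the other four controls. The low dose change was 0.20 (SE 0.05, adjusted p = 0.0402), the middle dose change 0.26 (SE 0.06, adjusted p = 0.0237) and the high dose change 0.22 (SE 0.05, adjusted p = 0.0482). All 3 passed, at 1.15-, 1.20- and 1.17-fold on this scaling. Unscaled, the log2 differences from control were 0.02, -0.32 and -0.48 with rising dose.

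miR-27b, which differs from miR-27a at 1 base, had control levels of -0.53, -0.48, -0.33, -0.30 and -0.27. Low dose livers gave -0.35, -0.28, -0.21, -0.13 and -0.08, middle dose livers -0.15, -0.15, -0.07 and -0.07, and high dose livers -0.36, -0.21, -0.19, -0.18 and -0.10. The middle dose arrays did not overlap the controls. Of the low dose arrays 3 of 5, and of the high dose arrays 4 of 5, lay above the highest control. The change of 0.28 at the middle dose (SE 0.07, 95% interval 0.13 to 0.43, adjusted p = 0.0339), or 1.22-fold, passed. The low dose change of 0.17 (SE 0.07, adjusted p = 0.214) and the high dose change of 0.18 (SE 0.07, adjusted p = 0.103) did not.

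miR-24, which in human cells restrains cell-cycle genes such as MYC and E2F2 and the DNA damage histone H2AX, had control levels of 0.05, 0.14, 0.20, 0.24 and 0.44. Low dose livers gave 0.30, 0.38, 0.42, 0.42 and 0.47, middle dose livers 0.38, 0.43, 0.45 and 0.61, and high dose livers 0.18, 0.24, 0.33, 0.34 and 0.37. The low and middle dose groups overlapped the controls only through control replicate 1, and no high dose array exceeded that control. The middle dose change was 0.21 (SE 0.06, 95% interval 0.09 to 0.33, adjusted p = 0.0403), or 1.15-fold. Its low dose change was 0.18 (SE 0.05, adjusted p = 0.0684) and its high dose change 0.04 (SE 0.05, adjusted p = 0.721).

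For 3 of the 5, miR-23a, miR-27a and miR-27b, every middle dose array exceeded every control, where 4.33% of tested miRNAs did so, and for 0 of the 5 at the low dose (3.37%) or the high dose (4.33%). The order of the group means was the same for miR-23a, miR-27a and miR-24, with control lowest, then high, low and middle dose. For miR-23b and miR-27b it was control, low, high and middle dose, and for miR-27b the low and high dose means were -0.21 each.

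**Figure D3:**
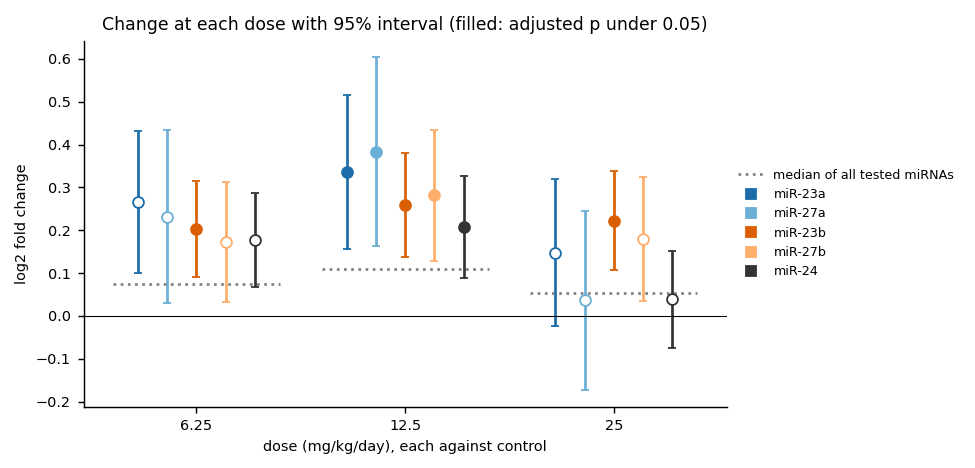
Log2 fold change of each miRNA at each dose against control with its 95% interval from limma; filled points passed and dotted lines mark the median of all 208 tested miRNAs. All 5 are filled at 12.5 mg/kg/day and miR-23b alone at 6.25 and 25 mg/kg/day on this scaling, and without scaling the 5 middle dose changes turn negative.

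The mean of the 3 dose changes against control passed for 3 of the 5, where 8.17% of tested miRNAs passed. miR-23b differed by 0.23 (SE 0.04, adjusted p = 0.00838), miR-23a by 0.25 (SE 0.07, adjusted p = 0.0329) and miR-27b by 0.21 (SE 0.06, adjusted p = 0.0329). miR-27a differed by 0.22 (adjusted p = 0.109) and miR-24 by 0.14 (adjusted p = 0.0645) and did not pass. An F test over the 4 groups passed for 0 of the 5, with adjusted p of 0.0643 to 0.115 and unadjusted p of 0.00154 to 0.0103, and a linear trend over the dose passed for 0 of the 5. In each of these tests 0.962% of tested miRNAs passed. Without adjustment, at p under 0.05, the F test had 52, and the trend 35 higher and 13 lower. Without any scaling the trend passed as a decline for all 5, with log2 changes of -0.74 to -0.54 over the 25 mg/kg/day range (adjusted p = 0.0192 to 0.0471), where 48.1% of tested miRNAs declined.

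The doses were also set against each other, and none of the 5 passed by limma in any of the 3 comparisons. High minus middle dose was -0.35 for miR-27a (95% interval -0.56 to -0.13, adjusted p = 0.384), -0.17 for miR-24 (-0.28 to -0.05, adjusted p = 0.487) and -0.19 for miR-23a (-0.36 to -0.01, adjusted p = 0.684). It was -0.10 for miR-27b (-0.25 to 0.05) and -0.04 for miR-23b (-0.16 to 0.08). In that comparison 0 of 208 miRNAs passed, with 3 higher and 11 lower without adjustment at p under 0.05, and miR-27a and miR-24 had the second and the third smallest p. Without control replicate 10, which is in neither group, miR-27a differed by -0.36 between high and middle dose with an adjusted p of 0.0453. Leaving out any of the 18 other arrays gave no member of the clusters that passed. High minus low dose lay between -0.20 and 0.02 over the 5 and middle minus low dose between 0.03 and 0.15, with 0.481% of tested miRNAs past the threshold in each.

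The direction of the changes in middle and high dose livers depended on the scaling. With no scaling the log2 changes of the 5 were -0.01 to 0.09 in low dose, -0.37 to -0.19 in middle dose and -0.67 to -0.48 in high dose livers, and none passed. The median over all tested miRNAs then moved to -0.03, -0.23 and -0.46. Relative to it the 5 stood at 0.02 to 0.12, -0.13 to 0.04 and -0.21 to -0.03 in the same order of doses. Division by the 75th percentile over all probes gave 0.10 to 0.19, -0.28 to -0.11 and -0.23 to -0.04, with medians over all tested miRNAs of 0.01, -0.15 and -0.07. That percentile was 1.74 to 4.02 intensity units per array. Of the 696 miRNAs, 155 to 209 were detected per array, and 453 were detected on no array.

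Several other ways of processing gave changes of 0 or more for most of the 5. In high dose livers miR-27a lay below 0 in the value table, and miR-27a (-0.02) and miR-24 (-0.0020) did so with the scanner software's total signal per miRNA in place of the brighter probe. Quantile normalization gave 0.06 to 0.15, 0.09 to 0.26 and 0.05 to 0.18 with rising dose, above the median of all tested miRNAs for all 5 at each dose, and none passed. The labelling spike-ins gave 0.10 to 0.19, 0.00 to 0.18 and 0.10 to 0.29, and none passed. With normexp background correction the changes were 0.15 to 0.23, 0.08 to 0.34 and 0.03 to 0.17, but the median over all tested miRNAs was 0.30, 0.60 and 0.32, so that none of the 5 exceeded it. In the value table of the series, as the authors deposited it, the changes were 0.07 to 0.16, 0.14 to 0.26 and -0.01 to 0.25. It held 187 of the tested miRNAs, and p was adjusted over those. There miR-23a passed by limma at the middle dose (0.26, adjusted p = 0.0275) and miR-23b at the high dose (0.25, adjusted p = 0.0412).

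**Figure D4:**
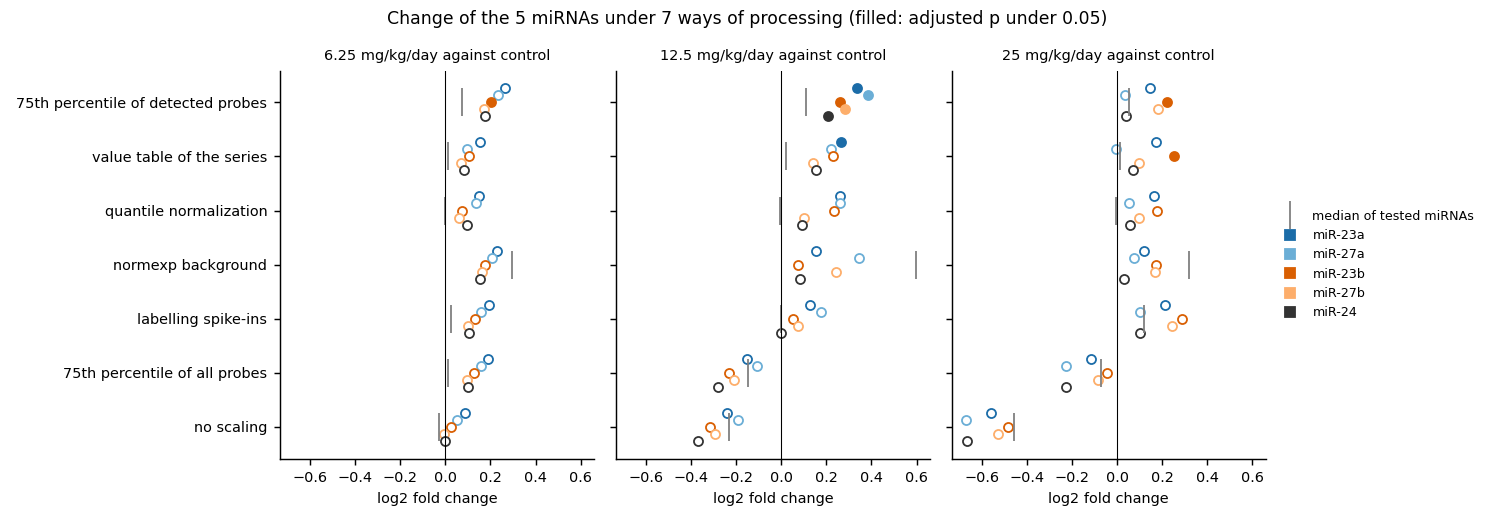
Log2 fold change of the 5 miRNAs at each dose against control under 7 ways of processing, with grey ticks at the median of all tested miRNAs and filled points where the adjusted p was under 0.05. At 12.5 and 25 mg/kg/day the 5 lie at or above 0 under most scalings, at 25 mg/kg/day with miR-27a at -0.01 in the value table, and below 0 without scaling or with the percentile of all probes.

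Single arrays weighed on the calls. Control replicate 10, the only control on slide 2, was the lowest control for miR-23a, miR-27a and miR-24. Without it none of the 5 passed at any dose: the low dose changes were 0.11 to 0.19, the middle dose changes 0.15 to 0.30 (adjusted p = 0.0869 to 0.0992) and the high dose changes -0.09 to 0.20. Without middle dose replicate 6 or 14 the middle dose count was also 0. It was 1 when control 17, low dose array 12 or middle dose array 20 was left out, 2 for control 19, and 3 for each of control 22, low dose arrays 11 and 18 and high dose arrays 7, 8, 16 and 23. Leaving out any of 3 arrays, control 1 among them, kept it at 5, and for 2 more arrays it was 4.

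Within each slide the middle dose changes were higher than control for all 5 on all 3 slides. They were 0.09 to 0.23 on slide 1, 0.18 to 0.84 on slide 2 and 0.19 to 0.39 on slide 3. These slides held 2, 1 and 1 middle dose arrays against 1, 1 and 3 controls, and the control on slide 2 was replicate 10. The 5 miRNAs share these arrays and their scaling factors. At the high dose miR-27a differed by -0.16, 0.44 and -0.14 on slides 1, 2 and 3, and miR-24 by -0.11, 0.25 and -0.02. miR-23b differed by 0.03, 0.34 and 0.24. With row and slide both as blocks the middle dose changes were 0.21 to 0.39 and none passed (adjusted p = 0.0839 to 0.0917). The part of the row in the changes was not tested beyond this fit.

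The second probe of each miRNA gave changes in the same direction at every dose. At the middle dose it gave 0.36 for miR-23a (SE 0.09, adjusted p = 0.0433), 0.39 for miR-27a (SE 0.12, adjusted p = 0.0865), 0.29 for miR-23b (SE 0.08, adjusted p = 0.0527), 0.32 for miR-27b (SE 0.15, adjusted p = 0.195) and 0.21 for miR-24 (SE 0.06, adjusted p = 0.0527). miR-23a alone passed through it. The brighter probes had residual SDs of 0.08 to 0.15 around the fit, against a median of 0.14 over all tested miRNAs, and miR-24 and miR-23b were the steadiest of the 5.

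Dividing an array by 1 factor leaves the difference between a pair of these miRNAs on that array unchanged, whereas quantile normalization, normexp and the value table can change it. The 10 pairs were compared between 14 dosed and 5 control arrays with a two-sided exact permutation test within slides (1260 arrangements, smallest possible p 0.000794), and 0 passed after adjustment over the 10. The widest shift was in miR-23a minus miR-24, which was 0.30 ± 0.07 (SD, n = 14) in dosed and 0.19 ± 0.09 (SD, n = 5) in control arrays, a within-slide difference of 0.11 (exact permutation p = 0.0151, adjusted 0.151). Without control replicate 22 that difference was 0.14 with an adjusted exact permutation p of 0.0185. No pair passed when any of the 18 other arrays was left out. The other nine pairs shifted by -0.01 to 0.08. miR-27a minus miR-23b was -1.24 ± 0.19 (SD, n = 5) in controls, then -1.23 ± 0.10 (n = 5), -1.13 ± 0.13 (n = 4) and -1.45 ± 0.08 (n = 5) with rising dose. miR-23b minus miR-24 was 0.36 ± 0.12, 0.40 ± 0.04, 0.41 ± 0.04 and 0.56 ± 0.07 in the same groups. Single doses were not tested for these pairs.

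Across the 19 arrays, with slide means removed, miR-23a and miR-27a of chromosome 8 varied much like each other and like miR-24, whose signal comes from both clusters. Pearson r was 0.89 between miR-23a and miR-27a, 0.89 between miR-23a and miR-24 and 0.90 between miR-27a and miR-24. Among 136 other miRNAs detected on all arrays, miR-24 ranked 1 and miR-27a ranked 2 in likeness to miR-23a, and miR-24 ranked 1 for miR-27a. The points share a scaling factor per array and the dose groups, and the median r with all others was 0.21 to 0.42 over the 5. Without control replicate 10 the 3 values were 0.82, 0.83 and 0.84. On all 19 arrays, with group means removed in addition to slide means, they were 0.83, 0.79 and 0.79.

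The pair of chromosome 13, miR-23b and miR-27b, had an r of 0.84, 0.86 without control replicate 10 and 0.65 with group means removed. Between the clusters the values were lower. miR-27a and miR-27b, which share their seed, had an r of 0.39, and -0.15 with group means removed. In the same order miR-23a and miR-23b had 0.63 and 0.21. miR-27a and miR-23b had 0.58 and 0.42, and miR-23a and miR-27b had 0.42 and -0.28. miR-24, which sums both clusters, had 0.67 with miR-23b and 0.50 with miR-27b. With group means removed these were 0.59 and 0.07. These correlations are given as a description with no test.

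**Figure D5:**
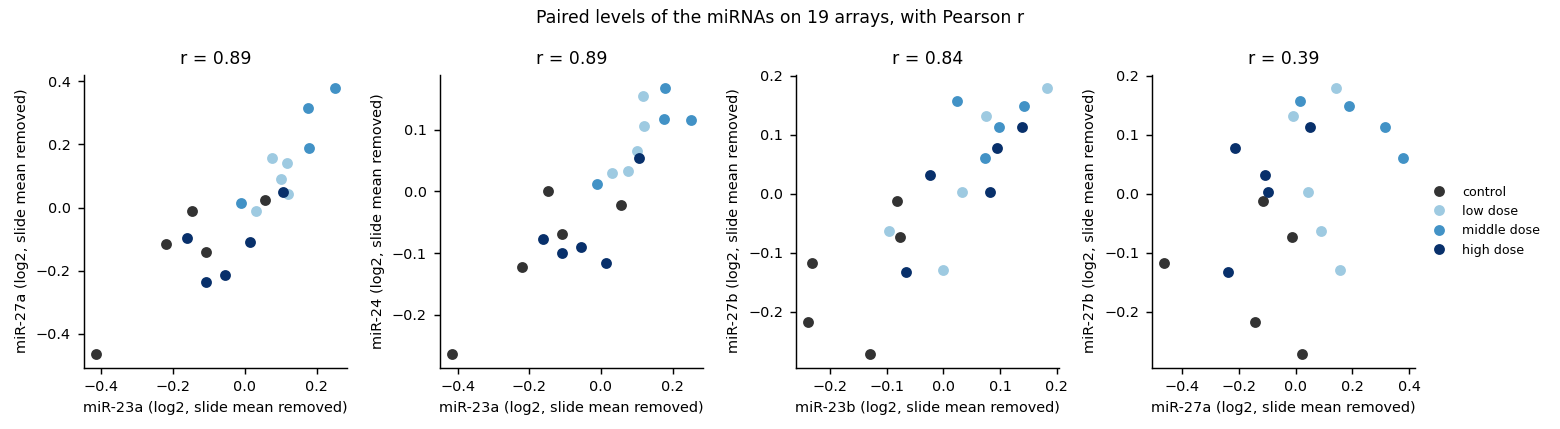
Levels on the 19 arrays after removal of slide means (log2), for miR-23a against miR-27a and miR-24, miR-23b against miR-27b, and miR-27a against miR-27b, coloured by dose group. Pearson r is 0.89, 0.89, 0.84 and 0.39, and control replicate 10 is the lowest point in both left panels.

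Of the miRNAs outside the clusters, those most like miR-23a were miR-126-3p (r = 0.73), let-7e (0.70) and miR-20a (0.69), and miR-126-3p, made in endothelium, was also closest to miR-24 (0.83), followed by miR-106b and miR-93 (0.73 each). miR-27a was closest to miR-199a-3p (0.78), miR-199b* (0.76) and miR-199a-5p (0.76), which are found in stellate and other mesenchymal cells. miR-23b was closest to miR-92a (0.92), miR-139-5p (0.92) and the myeloid miR-223 (0.89), closer than to miR-27b (0.84). miR-27b was closest to miR-1944 (0.85), miR-139-5p (0.77) and miR-92a (0.75). These values include differences between the dose groups. With group means removed, miR-23b had 0.83, 0.77 and 0.66 with its 3, against 0.65 with miR-27b. miR-27b then had 0.73, 0.52 and 0.43, and the values listed for miR-23a, miR-27a and miR-24 lay between 0.49 and 0.79.

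Of 6 listed opposite strands of the same hairpins, 4 were on the array. The scanner software flagged miR-24-1* as detected on 12 arrays, miR-24-2* on 3, and miR-27a* and miR-27b* on 0. All 4 stood at the floor of -4.79 on all 19 arrays, so no change can be given. The 2 miR-24 strands differ between the clusters, unlike miR-24-3p, and are shown for that reason, with seeds in capitals.
miR-24-1-5p: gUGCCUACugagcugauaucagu
miR-24-2-5p: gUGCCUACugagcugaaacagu
miR-24-1-5p comes from chr13:63301213-63301235 and miR-24-2-5p from chr8:84208839-84208860. The array names of these strands, miR-24-1* and miR-24-2*, were set beside these sequences by gene.

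Because whole liver tissue was used, fewer cells of a type and less RNA per cell cannot be told apart, and markers of other cells were read beside the clusters. Of the endothelial markers, miR-126-3p rose on this scaling by 0.29 at the low dose (adjusted p = 0.0268) and differed by 0.16 and 0.08 at the middle and high doses, and miR-126-5p did not pass. The summed level of these markers, nearly all of it miR-126-3p, was 1.06 to 1.52 in controls, then 1.58 to 1.70, 1.42 to 1.59 and 1.34 to 1.53 with rising dose. Of 4 tested leukocyte markers, miR-223 passed at each dose, with 0.37, 0.48 and 0.39, and the other three did not. The brightest of the 4, miR-142-3p, differed by 0.19, 0.20 and 0.12 with rising dose. The summed leukocyte level was 0.07 to 0.57 in controls, 0.57 to 0.66, 0.40 to 0.75 and 0.28 to 0.78 at the 3 doses. miR-150 and miR-155 of that list were detected on 0 arrays. The part of these cells in the changes of the clusters was not tested.

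None of the 5 hepatocyte markers passed, with median changes of 0.04, -0.06 and -0.08 with rising dose, and none of 4 stellate and smooth muscle cell markers did, with 0.15, 0.34 and -0.04. The same held for 5 bile duct markers (0.41, 0.26 and 0.39), 2 erythroid markers (0.07, -0.11 and -0.31) and 2 striated muscle markers (0.23, 0.60 and -0.44). Of the striated muscle markers, miR-1 was detected on 6 arrays and miR-133b on 4. Of the bile duct markers, miR-141 was detected on 4 arrays, miR-200c on 7 and miR-429 on 12, with mean levels of -4.54, -4.39 and -4.40, near the floor. The medians of these lists therefore rest in part on markers that many arrays did not detect. miR-34a, a direct target of the DNA damage factor p53, served as a control for the exposure and rose by 1.52, 3.11 and 3.49 on the log2 scale with rising dose, where the widest change in the clusters was 0.38.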

How the data were processed

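Liver miRNA was measured on 19 one-colour arrays. Per the file headers, Agilent Feature Extraction 10.7.3.1 gave each spot a background-subtracted signal intensity that was not scaled between arrays, and the design build was mm9. The authors deposited a value table of log2 values for 692 miRNAs, of which 636 matched by name and 187 were among the tested miRNAs. Its columns correlated with the scanner signals at r of 0.966 to 0.982 and had medians of 5.04 to 5.06. Over miRNAs detected on all arrays its 75th percentile varied less (7.56 to 7.84) than that of the log2 scanner signals (7.12 to 8.94), and its method is not given in sources used here.

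Control spots were left out of 14635 per array, which left 13920, and outlier spots were dropped before averaging the 5 to 20 spots of 1937 probes. Division by the 75th percentile over 220 probes detected on all arrays was followed by a log2 floor of -4.79, and the brightest probe stood for a miRNA. There were 0 saturated spots. limma 3.58.1 in R 4.3.3 tested the miRNAs detected on 4 or more arrays with slide as a fixed block, two-sided (the F test aside), with 95% intervals and a threshold of 0.05 on p adjusted by Benjamini-Hochberg. Pairs of miRNAs were compared with exact permutations within slides. Both procedures were tested on simulated data. Normexp (offset 50) ran on the median spot signal, not the mean. Alternatives covered scaling, background, floor, filter, probe, slide, row, covariate, value table and leaving out each array. The number of arrays limits the precision.

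The naming rule took all 5 miRNAs, up to 2 markers per list and the 3 others most like each of the 5. The 5, the lists and the tests were chosen with earlier results of these data known. The correlations without control replicate 10 were added after seeing the data. Outside that rule, miR-150, miR-155, miR-141, miR-200c and miR-429 were chosen after their values were seen. Sequences and coordinates come from RefSeq tables of GRCm38.p6.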

Additional observations from a re-analysis of the deposited data

Results flagged for a closer look

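Of 60 sets of 4 or 5 arrays, formed by each miRNA and each pair of them within each group, 1 held an array far from the others. In miR-23a minus miR-23b the middle dose replicate 5 had a difference of -0.14, and its gap to the nearest of the other three arrays was 0.957 of the range of the group. Chance marks about 1 in 20 such sets.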

How the results depend on the processing

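Results depended on the scaling. Of the 5 miRNAs, 0 passed in the low, middle and high dose comparisons and in the mean of the doses with the 75th percentile over all probes, quantile normalization, no scaling, labelling spike-ins, normexp, the total signal per miRNA, or slide and row as blocks. With the percentile over all probes the log2 changes of miR-23a, miR-27a, miR-23b, miR-27b and miR-24 were -0.15, -0.11, -0.23, -0.21 and -0.28 at 12.5 mg/kg/day, -0.12, -0.23, -0.043, -0.085 and -0.23 at 25 mg/kg/day, and -0.027, -0.059, -0.049, -0.065 and -0.14 for the mean of the doses. With no scaling they were -0.24, -0.19, -0.32, -0.29 and -0.37, then -0.56, -0.67, -0.48, -0.53 and -0.67, then -0.24, -0.27, -0.26, -0.28 and -0.35 in the same comparisons, and at 6.25 mg/kg/day -0.0068 for miR-27b and -0.0022 for miR-24. The trend without scaling passed for 0 of the 5 as a rise and for 5 as a decline. At 25 mg/kg/day miR-27a was -0.019 and miR-24 -0.0020 with the total signal per miRNA, and miR-27a -0.0055 in the value table. Within slides miR-27a differed there by -0.16 and -0.14 (slides 1 and 3), miR-24 by -0.11 and -0.019, and miR-27b at 6.25 mg/kg/day by -0.055 (slide 1).

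Counts that passed at 6.25, 12.5 and 25 mg/kg/day were 0, 3 and 0 with a floor 4 times higher and with the mean of the probes, 0, 4 and 0 for miRNAs detected on all arrays, 0, 0 and 0 with no filter (1 in the mean of the doses) or only the groups compared, 0, 1 and 0 with the other probes, 0, 5 and 1 without the slide block, 1, 0 and 0 with array signal as covariate (0 in the mean of the doses) and 0, 1 and 1 in the value table, where the trend passed for 1. The F test passed for 1 without the slide block or with slide as a random block. Leaving out each array gave 0 to 2 at 6.25, 0 to 5 at 12.5 and 0 to 1 at 25 mg/kg/day, 0 to 5 for the mean of the doses, 0 to 2 for the F test, 0 to 1 for high against middle dose and 0 to 1 for pairs. The low dose count was 2 without control replicate 1 or high dose replicate 15 and 0 without any of 10 others, the high dose count was 0 without any of 14, and the mean of the doses had 5 without control replicate 1 and 0 without control replicate 10. High dose changes over these fits were -0.093 to 0.11 for miR-27a and -0.027 to 0.086 for miR-24.

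Dosed minus control differences between pairs that turned sign were small. With normexp they were -0.029 for miR-23a minus miR-27a, -0.014 for miR-23a minus miR-27b, 0.054 for miR-27a minus miR-23b and -0.039 for miR-23b minus miR-27b. For miR-27a minus miR-27b they were -0.0046 with the mean of the probes and -0.00023 in the value table, which also gave -0.0021 for miR-27a minus miR-24 and -0.0019 for miR-27b minus miR-24. Over left-out arrays the ranges were -0.0046 to 0.067 (miR-23a minus miR-27a), -0.043 to 0.066 (miR-23a minus miR-23b), -0.063 to 0.12 (miR-23a minus miR-27b), -0.11 to 0.033 (miR-27a minus miR-23b), -0.13 to 0.072 (miR-27a minus miR-27b) and -0.020 to 0.054 (miR-23b minus miR-27b). The cause of these differences was not tested. No paired analysis was possible because the groups share no replicate numbers. The dose coincides in part with the row of the slide and with array signal, 2 slides hold a single control, and probes cannot separate miR-24 of the clusters.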
